A study of Mus musculus with 6 samples.

Results

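The genes described here encode 10 core parts of the transforming growth factor beta (TGF-beta) pathway: the ligand Tgfb1, the receptors Tgfbr1, Tgfbr2 and Tgfbr3, the signal carriers Smad2, Smad3 and Smad4, the inhibitor Smad7, and the nuclear corepressors Ski and Skil. They were taken by name, by a rule that uses no measured value but with earlier results of these data known, and all 10 were found by NCBI gene identifier among the 18446 genes of the table. RNA was sequenced from naive CD4+ T cells (CD44 low, CD62L high) that had been sorted out of the spleens and lymph nodes of C57BL/6 mice aged 6 to 8 weeks. The cells came from wild-type mice (WT) or from mice with the label Zak-KO (genotype Zak-/-), and they were taken unstimulated (0 h) or after 6 h or 48 h of culture with antibodies against CD3 and CD28, which stand in for antigen and costimulation. This gave 6 libraries, 1 for each of 2 genotypes at 3 times. One protocol note speaks of a deficiency limited to T cells, and the labels name no Cre driver and do not say how many mice went into a library.

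TGF-beta restrains T cells and supports the differentiation of several helper and regulatory subsets. The ligand is secreted in a latent form, and once freed it binds the type II receptor (Tgfbr2), which recruits and phosphorylates the type I receptor (Tgfbr1), with Tgfbr3 (betaglycan) as a co-receptor that presents the ligand. The type I receptor phosphorylates Smad2 and Smad3, which join Smad4 and enter the nucleus, where Ski and Skil (SnoN) oppose them. Smad7 blocks the type I receptor, and both Smad7 and Skil are known targets of the pathway, which gives negative feedback.

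Levels are in FPKM, that is, fragments per kilobase of a transcript relative to the mapped total, so genes of different length can be compared. Summed FPKM ran from 496045 to 546113 per library, and the total of reads is not known. Among 156 chemosensory receptor genes of 900 to 1000 bases, the commonest value above 0 was 0.06 or 0.07 FPKM in each library, probably the worth of 1 fragment at that length. The lowest value of any of the 10 genes was 3.59. Of the T cell markers, Cd3e stood between 230.8 and 288.5 FPKM and Cd4 between 218 and 357, while of the CD8 genes Cd8a stayed between 0.50 and 1.02 and Cd8b1 between 8.11 and 12.0. Markers of naive cells summed to 1343 and 1296 FPKM at 0 h and to 405 and 390.01 at 48 h. The early activation marker Cd69 was at 12.0 to 17.1 FPKM at 0 h and at 225 to 278 at 6 h, and the proliferation marker Mki67 was at or below 0.80 until 6 h and at 75.2 and 92.6 at 48 h. Map3k20, which encodes Zak, was at 0.17, 0.19 and 1.35 FPKM in WT at 0, 6 and 48 h and at 0.10, 0.10 and 1.61 under the label Zak-KO. At 48 h its level was thus not lower under that label, with 1 library for each value. Whether the transcript was altered was not tested, so these libraries are named by their label below, and each comparison of genotypes depends on that label.

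Promoter sequences of 5 of the 10 genes were searched. Those of 3 are shown because these genes stand for the patterns below. Tgfb1 was higher after stimulation, Tgfbr2 was lower at both times, and Smad3 was lower at 48 h alone. Each window runs from 250 bases before to 50 bases after the start of the gene, on the strand of the gene (RefSeq, GRCm38.p6, the mm10 build): chr7:25686752-25687051 on the plus strand for Tgfb1, chr9:116175314-116175613 on the minus strand for Tgfbr2 and chr9:63757945-63758244 on the minus strand for Smad3. Capitals mark the GC box GGGCGG on either strand, the letters known to be bound by Sp1.
Tgfb1: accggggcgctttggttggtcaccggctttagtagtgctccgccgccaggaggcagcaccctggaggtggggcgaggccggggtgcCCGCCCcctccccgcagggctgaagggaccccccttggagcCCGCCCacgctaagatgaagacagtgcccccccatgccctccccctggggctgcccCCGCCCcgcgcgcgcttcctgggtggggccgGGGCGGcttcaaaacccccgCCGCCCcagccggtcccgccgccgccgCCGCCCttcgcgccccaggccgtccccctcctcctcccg
Tgfbr2: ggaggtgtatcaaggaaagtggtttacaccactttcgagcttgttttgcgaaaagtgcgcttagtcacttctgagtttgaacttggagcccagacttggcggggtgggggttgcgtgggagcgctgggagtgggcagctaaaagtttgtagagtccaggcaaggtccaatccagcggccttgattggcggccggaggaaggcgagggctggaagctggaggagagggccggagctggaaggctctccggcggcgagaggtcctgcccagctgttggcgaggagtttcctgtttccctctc
Smad3: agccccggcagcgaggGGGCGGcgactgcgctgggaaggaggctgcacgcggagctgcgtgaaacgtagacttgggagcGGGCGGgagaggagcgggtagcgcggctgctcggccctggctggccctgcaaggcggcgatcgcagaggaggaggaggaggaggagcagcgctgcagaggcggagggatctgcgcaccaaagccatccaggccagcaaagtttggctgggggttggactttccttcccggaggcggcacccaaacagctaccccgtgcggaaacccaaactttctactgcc

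The 3 windows differed in composition. Tgfb1 held 6 GC boxes and was 77.0% G or C, Smad3 held 2 and was 67.7% G or C, and Tgfbr2 held none and was 59.0% G or C, against a median of 52.7% over 32851 promoter windows of the same length. A GC box was present in 35.66% of those windows. Of the other genes searched, Ski, which was lower at both times, held 6 and was 85.3% G or C. The first window of Tgfbr1, a gene lower at 48 h, held 2 and was 74.7% G or C, and its second held none. None of the 3 windows shown held the Smad-binding letters CAGACA (present in 21.04% of all windows) or the palindrome GTCTAGAC (0.21%). Nor did any of them hold the AP-1 letters TGANTCA (7.81%) or the TATA letters TATAAA (13.62%). All letters were searched on both strands. Over the genes searched, CAGACA was found once, in the second of 2 windows listed for Tgfbr1. The promoters of Smad2, Smad4, Smad7, Tgfbr3 and Skil were not searched, so the presence of these letters there was not tested. GGGCGG and TATAAA were added to the search after the other letters had been looked for. A match is a description of the letters and not evidence of binding.

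**Figure D1:**
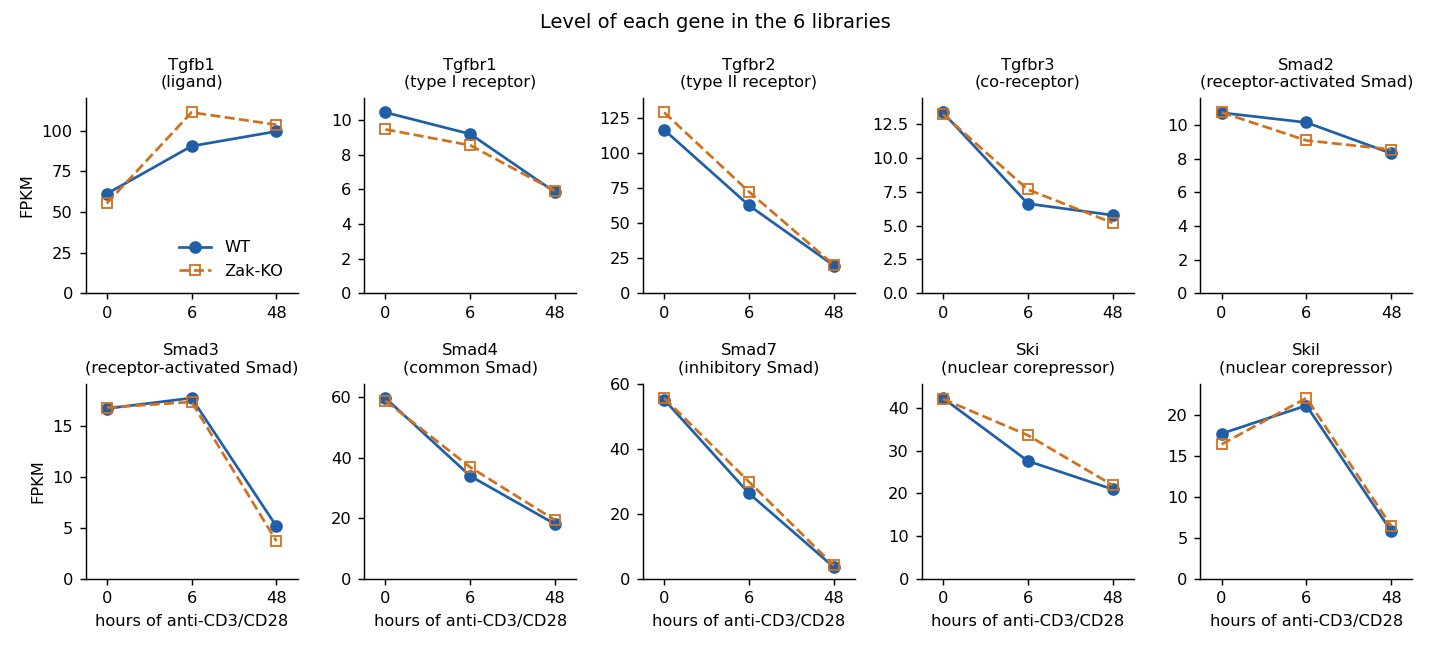
FPKM of each of the 10 genes (vertical axes, from 0) against hours of anti-CD3/CD28 (horizontal axis, not to scale), with 1 point per library; circles and full lines are WT, squares and dashed lines the libraries labelled Zak-KO. Tgfb1 is higher after stimulation, Smad3 and Skil are lower at 48 h but not at 6 h, and the other 7 genes are in the order 0 h, 6 h, 48 h from high to low under both genotypes.

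In brief, stimulation went with more transcript for the ligand and, by 48 h, less for the 10 genes' receptors and signal-carrying Smads. Transcripts of Smad7, Ski and Skil, whose products oppose the signal, were also lower at 48 h. At 48 h, 9 of the 10 genes had fallen and Tgfb1 had risen (limma over both genotypes). Across all 10347 genes tested, 35.2% fell and 39.0% rose by the same test at 48 h. The median log2 change of the 10 genes was -1.24, against 0.03 over all genes tested. Folds here and below are of FPKM+1, so they are smaller than the ratio of the printed FPKM, most of all at low levels. In the 2-library comparisons, 6 of the 10 genes were 2-fold or more lower at 48 h in WT, where 12.3% of all genes were. These were Tgfbr2, Tgfbr3, Smad3, Smad4, Smad7 and Skil. The same 6 were so under the label Zak-KO, where 12.0% were. None of the 10 was 2-fold or more higher at 48 h, against 17.8% of all genes in WT and 18.4% under the label Zak-KO. With 0.1 in place of 1 FPKM added to each value, Ski in WT was also past 2-fold lower (log2 difference -1.01).

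By 6 h 5 genes had fallen (Tgfbr2, Tgfbr3, Smad4, Smad7 and Ski) and 2 had risen (Tgfb1 and Skil), where 30.4% of all genes fell and 26.3% rose by the same test. Only Smad7 in WT was 2-fold or more lower at 6 h (1.39% of all genes), with none under the label Zak-KO (1.52%), and none was 2-fold or more higher (8.93% and 9.08%). From 6 h to 48 h, 8 of the 10 fell, against 30.0% of all genes, and Tgfb1 and Smad2 did not pass the test. Levels were in the order 0 h above 6 h above 48 h under both genotypes for 7 genes, which held for 24.0% of all genes. The test used the 2 libraries of each time, 1 per genotype, and took their departure from parallel time courses as the error (2 residual degrees of freedom), so its p-values measure the spread between these libraries and not between mice. FPKM is a share of each library, and in bulk RNA fewer cells of a type and less RNA per cell cannot be told apart.

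**Figure D2:**
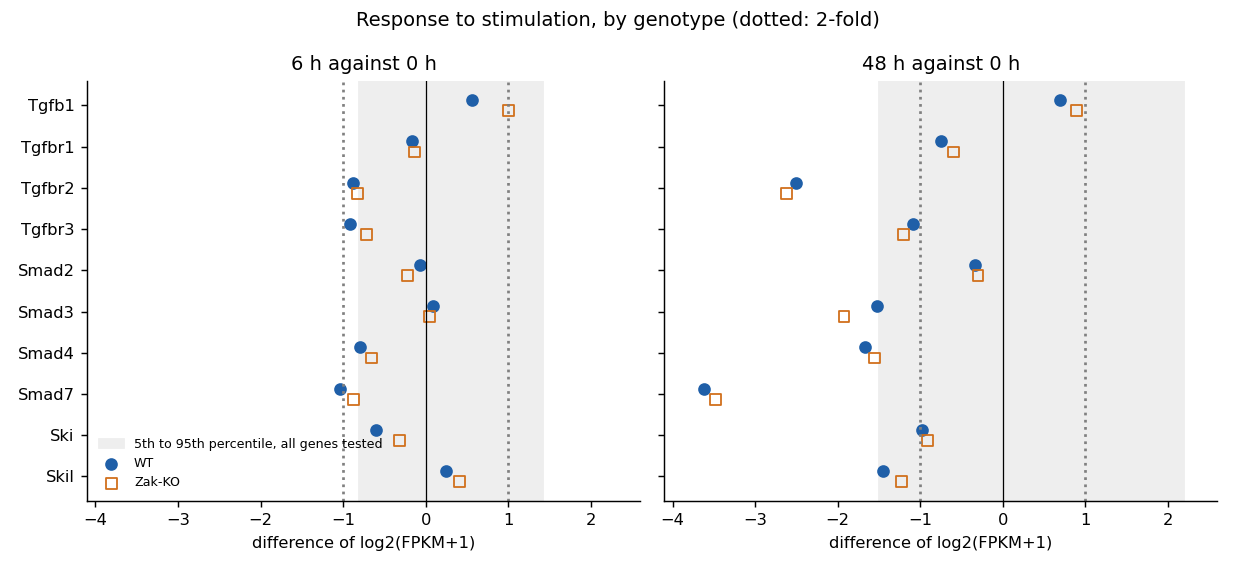
Difference of log2(FPKM+1) from the 0 h library of the same genotype (horizontal axes) for each gene, at 6 h (left) and 48 h (right); circles are WT and squares the libraries labelled Zak-KO, dotted lines mark 2-fold, and the grey band is the 5th to 95th percentile of all genes tested. At 48 h Smad7, at -3.62 and -3.48, and Tgfbr2, at -2.51 and -2.62, lie furthest to the left, and Tgfb1 alone lies to the right of 0.

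The ligand moved against the rest. Tgfb1 (chromosome 7, 25687002 to 25705077, GRCm38), the main TGF-beta of lymphocytes, stood at 61.2, 90.6 and 99.7 FPKM at 0, 6 and 48 h in WT and at 55.3, 111 and 104 under the label Zak-KO. All 4 stimulated libraries were above both resting ones. It rose 1.72-fold at 6 h (log2 change 0.78 ± 0.11 SE, adjusted p = 0.00173, limma) and 1.74-fold at 48 h (0.80 ± 0.11, adjusted p = 0.000775). Most of the rise was in place by 6 h, and between 6 h and 48 h the log2 change was 0.02 (95% interval -0.25 to 0.29), with the WT library higher and the one labelled Zak-KO lower. With this rise and the fall of the others, the share of Tgfb1 in the summed FPKM of the 10 genes went from 15.14% to 51.67% in WT and from 13.55% to 52.1% under the label Zak-KO. The sum itself was 404.11 FPKM at 0 h, 305.97 at 6 h and 192.88 at 48 h in WT, and 407.69, 348.89 and 199.12 under the label Zak-KO.

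Markers of platelets, megakaryocytes and myeloid cells were low, while those of regulatory T cells were present. What part such cells had in the rise of Tgfb1 was not tested. Of the platelet and megakaryocyte markers, Ppbp and Gp9 stood at 0.11 FPKM or below and Pf4 at 0.83 or below in every library, and the list of 4 summed to between 0.38 and 3.28 FPKM, most of it Itga2b except in the 48 h library labelled Zak-KO, where Pf4 was the higher. The 5 myeloid markers summed to between 3.26 and 4.81 FPKM, with Lyz2 at 0.36 or below. Transcripts of regulatory T cells were present: Foxp3, their lineage factor, stood at 14.1, 40.3 and 5.90 FPKM in WT and at 16.0, 44.7 and 7.65 under the label Zak-KO, and Il2ra, which activated T cells also express, at 10.2 to 14.2 at 0 h and 89.6 or more after stimulation. Of the other regulatory T cell markers, Ctla4 stood at 52.0, 47.9 and 70.4 FPKM in WT and at 67.9, 47.7 and 61.2 under the label Zak-KO, and Ikzf2 at 3.98, 3.59 and 1.18 and at 4.84, 3.60 and 1.78. The 4 markers of the list thus did not share 1 course.

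The receptors were unequal in level and in change. Tgfbr2 (chromosome 9, 116087695 to 116175363), the receptor subunit that binds the ligand first, stood at 117, 62.7 and 19.7 FPKM at 0, 6 and 48 h in WT and at 129, 72.5 and 20.2 under the label Zak-KO. At 0 h it was the highest of the 10 genes in both libraries and above 95.2% and 95.7% of all genes tested, and at 48 h it was above 60.0% and 60.8%. It fell 1.81-fold by 6 h (log2 change -0.86 ± 0.08 SE, adjusted p = 0.000273, limma) and 5.91-fold by 48 h (-2.56 ± 0.08, adjusted p = 1.83e-06). The 3 times did not overlap.

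Tgfbr1 (chromosome 4, 47353222 to 47414926), the kinase that phosphorylates Smad2 and Smad3, was far lower to begin with. Its values were 10.4, 9.19 and 5.83 FPKM in WT and 9.46, 8.54 and 5.90 under the label Zak-KO. At 6 h the log2 change was -0.15 (95% interval -0.38 to 0.08) and did not pass the test, and by 48 h it had fallen 1.59-fold (-0.67 ± 0.09 SE, adjusted p = 0.00076, limma). Both 48 h libraries were below all others. The ratio of Tgfbr2 to Tgfbr1, which does not depend on how a library is scaled, went from 11.2 to 6.82 and 3.38 in WT and from 13.7 to 8.49 and 3.43 under the label Zak-KO, so the subunits drew closer in level while both fell.

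Tgfbr3 (chromosome 5, 107106567 to 107289629), the co-receptor, stood at 13.4, 6.62 and 5.77 FPKM in WT and at 13.2, 7.67 and 5.20 under the label Zak-KO. It fell 1.76-fold by 6 h (log2 change -0.82 ± 0.11 SE, adjusted p = 0.00136, limma) and 2.21-fold by 48 h (-1.14 ± 0.11, adjusted p = 0.000138). The further step from 6 h to 48 h (-0.33 ± 0.11, adjusted p = 0.04, limma) lost its call when genes of any level were tested. It was also lost when any of 4 libraries was left out: either 0 h library, the 6 h library labelled Zak-KO or the 48 h library labelled Zak-KO.

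**Figure D3:**
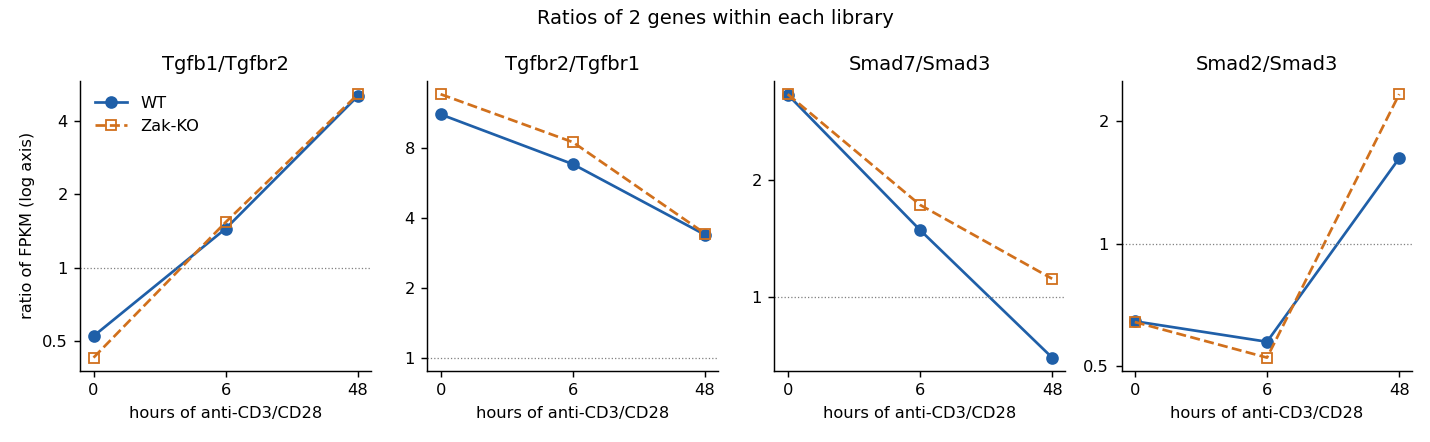
Ratio of the FPKM of 2 genes within the same library (vertical axes, log scale, each panel with its own range) against hours of anti-CD3/CD28; circles are WT and squares the libraries labelled Zak-KO, and the dotted line marks equal levels. Tgfb1 goes from below to above Tgfbr2, at 0.52 and 0.43 at 0 h and 5.05 and 5.13 at 48 h, and Smad2 from below to above Smad3.

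The ratio of ligand to receptor transcripts turned over. Tgfb1 stood at 0.52 times Tgfbr2 at 0 h, 1.44 times at 6 h and 5.05 times at 48 h in WT, and at 0.43, 1.54 and 5.13 times under the label Zak-KO. At each time the genotypes were close to each other beside the distance between times.

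The Smads that carry the signal kept different courses. Smad2 (chromosome 18, 76241090 to 76311748) was the steadiest of the 10 genes, at 10.7, 10.2 and 8.32 FPKM in WT and at 10.8, 9.09 and 8.55 under the label Zak-KO. Its log2 change was -0.15 at 6 h (95% interval -0.37 to 0.08) and -0.32 ± 0.09 SE at 48 h (1.25-fold lower, adjusted p = 0.0207, limma). This call was lost without the 0 h WT library (adjusted p = 0.0987), the 48 h WT library (0.142) or the 0 h library labelled Zak-KO (0.147).

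Smad3 (chromosome 9, 63646766 to 63757994), the other receptor-activated Smad, held its level at 6 h and then dropped. It stood at 16.7, 17.7 and 5.14 FPKM in WT and at 16.8, 17.3 and 3.68 under the label Zak-KO. At 6 h the log2 change was 0.06 (95% interval -0.23 to 0.36), and by 48 h Smad3 had fallen 3.30-fold (-1.72 ± 0.12 SE, adjusted p = 3.81e-05). The 4 libraries at 0 and 6 h lay between 16.7 and 17.7 FPKM, far above the pair at 48 h. Smad2 stood at 0.64 times Smad3 at 0 h in both genotypes, at 0.57 and 0.53 times at 6 h, and at 1.62 times in WT and 2.32 times under the label Zak-KO at 48 h, so the order of these Smads reversed.

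Smad4 (chromosome 18, 73634790 to 73703791), the partner shared by all receptor-activated Smads, fell in steps. Its values were 59.7, 33.9 and 18.1 FPKM in WT and 58.8, 36.8 and 19.4 under the label Zak-KO. The fall was 1.66-fold by 6 h (log2 change -0.73 ± 0.08 SE, adjusted p = 0.000518, limma) and 3.06-fold by 48 h (-1.61 ± 0.08, adjusted p = 8.15e-06). Even so, Smad4 remained above Smad2 and Smad3 in every library, at 2.17 and 2.26 times Smad2 at 48 h.

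Smad7 (chromosome 18, 75367365 to 75395935), the feedback inhibitor, had the largest change of the 10 genes. It stood at 55.2, 26.3 and 3.59 FPKM in WT and at 55.7, 29.9 and 4.10 under the label Zak-KO. It fell 1.94-fold by 6 h (log2 change -0.96 ± 0.08 SE, adjusted p = 0.000255, limma) and 11.7-fold by 48 h (-3.54 ± 0.08, adjusted p = 1.12e-06), and 0.2% of all genes tested had a lower log2 change at 48 h. From above 87.4% of all genes tested at 0 h in both libraries it came to lie above 15.9% and 17.3% at 48 h. The inhibitor fell more than the genes it acts beside: it stood at 3.32 times Smad3 at 0 h in both genotypes, at 1.49 and 1.73 times at 6 h, and at 0.70 times in WT and 1.11 times under the label Zak-KO at 48 h. Against Smad4 it went from 0.93 and 0.95 times to 0.20 and 0.21 times.

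The corepressors, which bind Smads and recruit histone deacetylases, parted at 6 h. Ski (chromosome 4, 155154075 to 155222535) stood at 42.3, 27.6 and 21.0 FPKM in WT and at 42.1, 33.6 and 21.9 under the label Zak-KO. It fell 1.37-fold by 6 h (log2 change -0.46 ± 0.09 SE, adjusted p = 0.0069, limma), a call lost without the 0 h WT library (adjusted p = 0.0872), and 1.93-fold by 48 h (-0.95 ± 0.09, adjusted p = 0.000156). Skil (chromosome 3, 31095058 to 31122923) stood at 17.8, 21.2 and 5.84 FPKM in WT and at 16.5, 22.1 and 6.46 under the label Zak-KO.

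Skil was higher at 6 h than at 0 h in both genotypes (log2 change 0.32 ± 0.09 SE, adjusted p = 0.0256, limma). The call was lost when libraries were scaled to a common sum (adjusted p = 0.057, limma) and when genes of any level were tested. It was also lost when any library from 0 h or 6 h was left out. Its fall by 48 h was 2.53-fold (-1.34 ± 0.09, adjusted p = 3.53e-05), and from 6 h to 48 h 3.17-fold (-1.67 ± 0.09, adjusted p = 3.68e-05). Ski stood above Skil in every library, at 2.38 and 2.56 times at 0 h, 1.30 and 1.52 times at 6 h and 3.59 and 3.39 times at 48 h.

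By level, the order of the 10 genes at 0 h began with Tgfbr2, followed by Smad4, Tgfb1 and Smad7, whose places differed between the genotypes and which lay between 55.2 and 61.2 FPKM. Ski came next in both libraries, and Smad3 and Skil, at 16.5 to 17.8 FPKM, exchanged places. Tgfbr3, Smad2 and Tgfbr1 were lowest. At 48 h Tgfb1 was first, and Ski, Tgfbr2 and Smad4, between 18.1 and 21.9 FPKM, came next in that order under both genotypes. Smad7, among the 4 highest at 0 h, was last in WT and next to last under the label Zak-KO, where Smad3 was last.

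Few pairs among the 10 shared a course closely. Likeness was measured as the Euclidean distance between log2(FPKM+1) profiles over the 6 libraries, each centred on its mean. The nearest pairs were Tgfbr3 with Ski (0.388), Tgfbr1 with Smad2 (0.421), Tgfbr1 with Ski (0.438) and Smad3 with Skil (0.545). Among 8029 other named genes averaging at least 5 FPKM, those nearest to Smad7 were Mylip (0.229), a ubiquitin ligase gene, at 56.6, 28.3 and 3.10 FPKM in WT, then Cyp2d22 (0.239) and Arl5c (0.322). Nearest to Tgfbr2 were Pbxip1 (0.146), Stat5b (0.154), a transcription factor gene of cytokine signalling, and Gabbr1 (0.17). Near to Smad3 were Plcxd2 (0.41) and Cblb (0.445), a ubiquitin ligase gene of TCR signalling. Skil lay nearest to Cd2 (0.275), an adhesion receptor gene, Ppp1r15a (0.276) and Gch1 (0.286), and Tgfb1 to Raver1 (0.126), Sf3a2 (0.149), a splicing factor gene, and Cnksr3 (0.151). The others had closer neighbours: Tgfbr3 lay nearest to Marf1 (0.042), Kmt2c (0.089) and Wdtc1 (0.117), and Ski to Hdac5 (0.047), a histone deacetylase gene, Ccdc93 (0.071) and Fam102a (0.071). Smad2 lay nearest to the GTPase genes Nras (0.055) and Rab18 (0.068) and to Lims1 (0.078), and Tgfbr1 to Papolg (0.087), Prdx6 (0.095) and Ubl4a (0.103). Nearest to Smad4 were Ezh1 (0.111), a histone methyltransferase gene, Kctd2 (0.116) and Pja1 (0.118). These distances rest on 6 libraries and 3 times and carry no test.

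Other genes of the pathway were taken from 5 lists of 67 genes in all, of which 44 averaged at least 1 FPKM. At 48 h 26 of the 44 fell and 10 rose, and at 6 h 21 fell and 10 rose (limma over both genotypes). Of all genes tested, 35.2% fell and 39.0% rose at 48 h and 30.4% fell and 26.3% rose at 6 h, so the number risen at 6 h was near the share over all genes. Folds are of FPKM+1, so for genes with a level of a few FPKM or less they are smaller than the ratio of the printed FPKM. The median log2 change of the 44 at 48 h was -0.46, against 0.03 over all genes tested. Counts for 6 h depended on single libraries. With all libraries 31 of the 44 passed the test in either direction at 6 h, against 56.7% of all genes. When 1 of the 0 h libraries was left out, fewer passed, both among the 44 and over all genes.

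**Figure D4:**
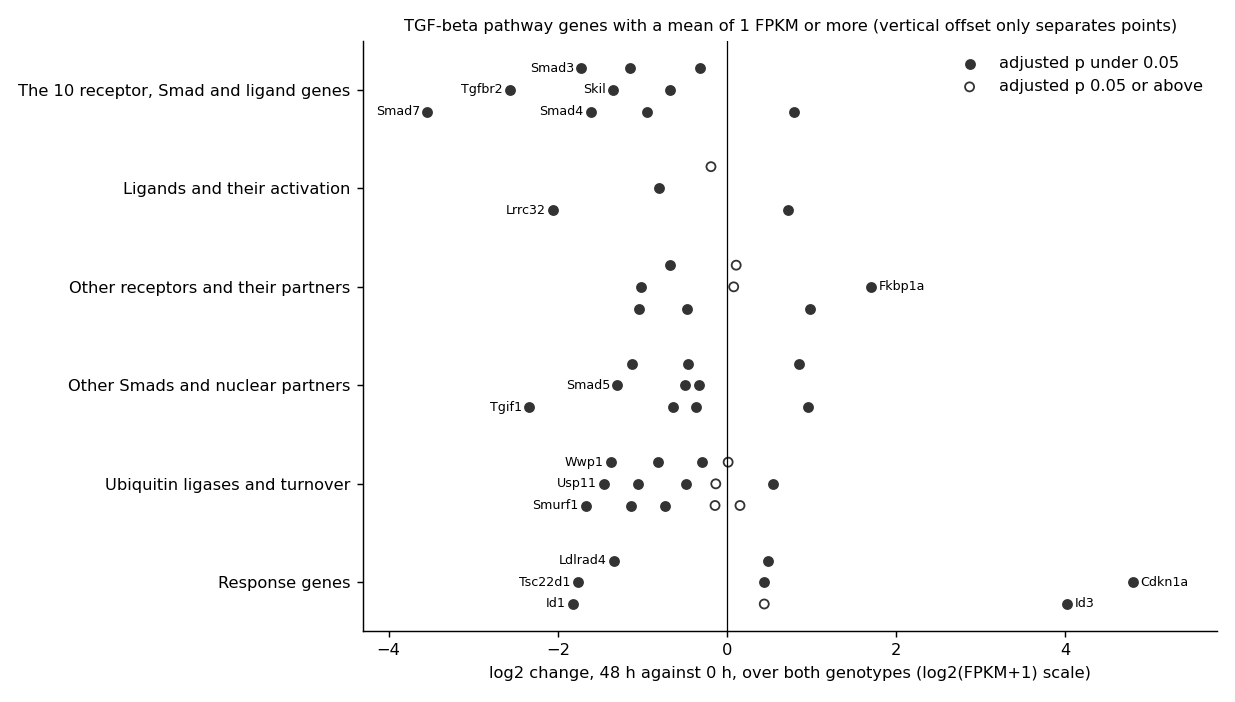
Log2 change from 0 h to 48 h over both genotypes (horizontal axis, log2(FPKM+1) scale) for the 10 genes (top row) and for the genes of 5 pathway lists that averaged at least 1 FPKM, 1 point per gene; filled points have an adjusted p under 0.05 (limma) and open points do not. In the top row 9 points lie left of 0, while the response genes lie on both sides, from Id1 at -1.82 to Cdkn1a at 4.80.

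Of 13 genes for other ligands and for ligand activation, 4 were measured well enough to test. Tgfb2 stayed at 0.19 FPKM or below and Tgfb3 at 1.07 or below, so Tgfb1 was the TGF-beta with appreciable transcript. Lrrc32 (GARP), which holds latent TGF-beta on regulatory T cells, stood at 15.5, 25.4 and 3.04 FPKM in WT and at 17.8, 31.0 and 3.43 under the label Zak-KO. It rose by 6 h (log2 change 0.72, adjusted p = 0.00088, limma) and had fallen 4.16-fold from rest by 48 h (-2.06 ± 0.09 SE, adjusted p = 5.51e-06). Of the 4 regulatory T cell markers given above, Foxp3 was also highest at 6 h and lowest at 48 h, while Ctla4 was lowest at 6 h, Ikzf2 was highest at 0 h and Il2ra stayed high at 48 h. What part regulatory T cells had in the Lrrc32 values was not tested. Nrros, a second anchor of latent TGF-beta, rose 1.65-fold by 48 h (15.8 to 25.8 FPKM in WT), the proprotein convertase gene Furin fell 1.75-fold (22.7 to 12.5), and the integrin gene Itgav did not pass the test at 48 h (5.18 to 4.62).

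Among other receptors and receptor partners, 8 of 15 genes were tested, and 4 fell and 2 rose at 48 h (35.2% and 39.0% of all genes). The activin receptor gene Acvr1b fell 2.06-fold (16.8 to 7.27 FPKM in WT), and Bambi, a decoy receptor gene, 2.02-fold on the FPKM+1 scale (2.49 to 0.59). Fkbp1a, whose product FKBP12 holds the type I receptor inactive, rose 3.26-fold, from 69.7 to 239 FPKM in WT and from 69.2 to 220 under the label Zak-KO (adjusted p = 4.54e-06, limma). Strap, which encodes a receptor-binding protein that works with Smad7, rose 1.98-fold (34.1 to 71.0).

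Of the other Smads and their nuclear partners 10 of 13 were tested, and 8 fell and 2 rose at 48 h (35.2% and 39.0% of all genes). Tgif1, a homeobox corepressor of Smads, stood at 93.5, 109 and 17.4 FPKM in WT and at 95.4, 108 and 18.3 under the label Zak-KO, which is a fall of 5.07-fold by 48 h (adjusted p = 1.81e-06, limma). The related gene Tgif2 rose 1.94-fold (16.2 to 33.1 FPKM in WT). Smad5, a Smad of bone morphogenetic protein signalling, fell 2.46-fold (18.2 to 6.78), and the coactivator gene Crebbp 2.18-fold (21.5 to 9.25). Smad6, the other inhibitory Smad, was at 0.16 FPKM or below in every library.

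Ubiquitin ligases and other turnover genes were all measured, 14 of 14, and 9 fell and 1 rose at 48 h (35.2% and 39.0% of all genes). Smurf1, whose product Smad7 brings to the receptor, stood at 26.3, 15.3 and 7.93 FPKM in WT and at 26.0, 17.4 and 7.11 under the label Zak-KO (3.19-fold lower at 48 h, adjusted p = 2.09e-05, limma). The deubiquitinase gene Usp11 fell 2.73-fold (10.3 to 2.69 FPKM in WT), the ligase gene Wwp1 2.59-fold (9.49 to 3.36), and Rnf111, which encodes Arkadia, a ligase that removes Smad7, Ski and SnoN, 2.20-fold (32.5 to 13.8).

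Of 12 genes known to respond to TGF-beta 8 were tested, and 4 rose and 3 fell at 48 h, near the shares over all genes (39.0% and 35.2%). Cdkn1a, the cell cycle inhibitor p21 and also a p53 target, stood at 1.07, 17.7 and 59.0 FPKM in WT and at 1.47, 15.7 and 65.2 under the label Zak-KO (27.9-fold higher at 48 h on the FPKM+1 scale, adjusted p = 1.37e-06, limma). Id3, an inhibitor of E proteins that TCR signals also induce, rose 16.3-fold (4.81 to 81.6 FPKM in WT), while its relative Id1 fell 3.52-fold on that scale (3.88 to 0.49). Tsc22d1, first found as a TGF-beta-stimulated gene, fell 3.39-fold (24.3 to 6.41).

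**Figure D5:**
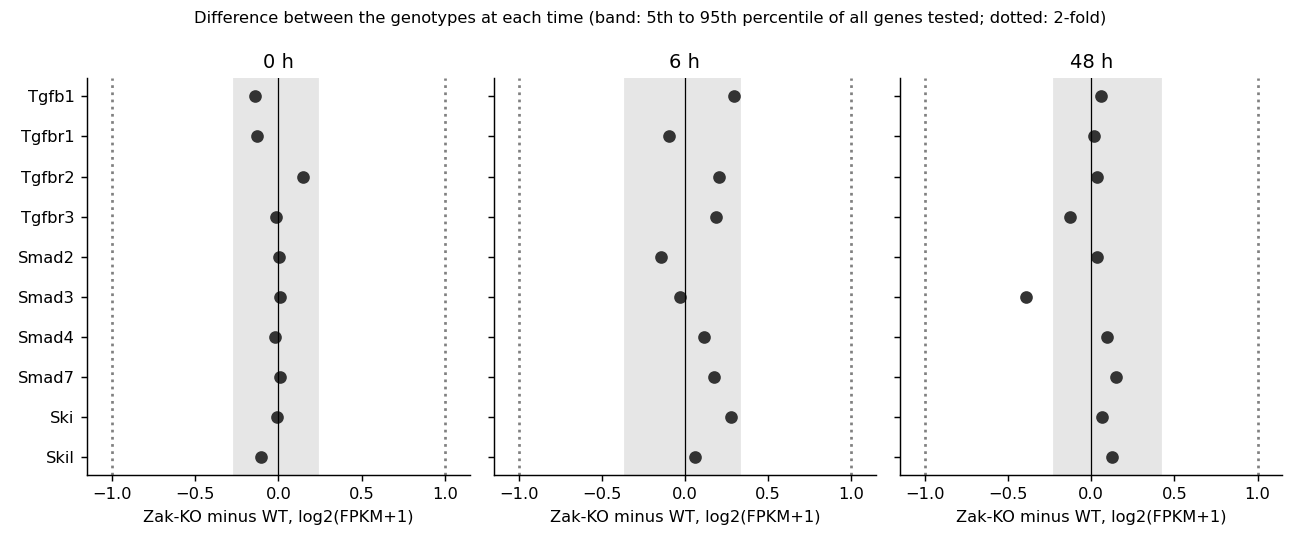
Difference of log2(FPKM+1) between the library labelled Zak-KO and the WT library of the same time (horizontal axes) for each of the 10 genes at 0, 6 and 48 h; the grey band is the 5th to 95th percentile of all genes tested, and dotted lines mark 2-fold. All points lie within the band except Smad3 at 48 h, at -0.39.

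Between the genotypes, none of the 10 genes differed 2-fold at 0, 6 or 48 h, where 0.271%, 0.242% and 2.23% of all genes did. With the 3 times as pairs, none passed the test (limma, smallest adjusted p 0.833), and 0.0290% of all genes did, 3 by adjusted p and 505 at an unadjusted p under 0.05. The effect nearest to a call was that of Tgfbr2, higher under the label Zak-KO at all 3 times, with a log2 difference of 0.13 (95% interval -0.02 to 0.28). Smad7 was also higher at all 3 times (0.11, interval -0.05 to 0.28), and no other gene kept its sign, where 27.4% of all genes did.

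Smad3 at 48 h had the widest gap between the genotypes, at 3.68 FPKM under the label Zak-KO against 5.14 in WT. This was 1.31-fold lower on the FPKM+1 scale, and 1.4% of all genes tested had a lower difference at that time. At 0 h and 6 h the Smad3 values were within 1.02-fold of each other, and over the 3 times the log2 difference was -0.14 (95% interval -0.38 to 0.10). At 6 h Tgfb1 was 1.23-fold and Ski 1.21-fold higher under the label Zak-KO, and 93.1% and 91.9% of all genes had a lower difference. Response differences at a single time have 1 library behind each value and were not tested. Summed B cell markers were 3.22 FPKM in WT and 6.87 under the label Zak-KO at 0 h, and their part in the differences between the genotypes was not tested.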

How the data were processed

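The deposited table gives FPKM for 18446 genes in 6 libraries, made by the authors with Bowtie and RSEM on mm10, per the submitters' processing notes; the sources used here do not give versions, settings or filters. Genes were named by NCBI identifier from RefSeq (GRCm38.p6); 18326 had a symbol. Values were taken as log2(FPKM+1) without rescaling, for the 10347 genes averaging at least 1 FPKM. This scale understates the change of low genes. Comparisons of 2 libraries carry no test and counted 2-fold differences. Tests across all genes used limma 3.58.1 (R 4.3.3) with additive terms for genotype and time, eBayes with trend and Benjamini-Hochberg adjustment (adjusted p under 0.05). The fit was also run on simulated data with the same noise for every gene, which cannot check p-values from libraries without replicates. Each ± is the standard error of limma. Tables and figures used Python 3.11.15, pandas 2.3.3 and matplotlib 3.10.9. Besides the 10 genes, up to 4 genes per pathway list were named by size of change at 48 h, those listed below the level tested by their role after their values were seen, and 3 nearest genes for each of the 10, of which 1 is not reported here. The 10 genes and the lists were chosen with earlier results of these data known. Alternatives changed the pseudocount, filter, scaling, thresholds, variance trend or 1 library at a time.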

Additional observations from a re-analysis of the deposited data

Results flagged for a closer look

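Between 6 h and 48 h Tgfb1 moved in opposite directions under the genotypes, by 0.14 on the log2(FPKM+1) scale in WT (90.6 to 99.7 FPKM) and by -0.10 under the label Zak-KO (111 to 104 FPKM). With 1 library per group this difference was not tested.

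The difference between the library labelled Zak-KO and WT took both signs over the 3 times for 8 of the 10 genes, Smad3 and Tgfb1 among them. Whether the genotype difference varied with time was not tested.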

How the results depend on the processing

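Without replicates, each 2-library value has no error of its own, and the tests assume parallel time courses. Scaling to a common sum moved the median of all genes by up to -0.12 on the log2 scale (48 h, label Zak-KO), and no change that passed the test changed direction under any alternative. Called at 48 h against 0 h were 9 or 10 of the 10 genes in every alternative. Of all genes, 74.2% were called at 48 h against 0 h with the main settings, 43.5% without a filter and 78.5% with a filter of 5 FPKM. At 6 h against 0 h, genes 2-fold apart numbered 1 in WT and 0 under the label Zak-KO. They became 2 and 1 with a pseudocount of 0.1 FPKM, 0 in WT with one of 5 FPKM, 2 in WT with a common sum, 1 under the label Zak-KO with median-ratio scaling, 5 and 5 with a 1.5-fold rule and 0 in WT with a 4-fold rule. At 48 h the 6 genes in WT and 6 under the label Zak-KO became 7 and 6 with a pseudocount of 0.1 FPKM and 5 and 4 with one of 5 FPKM. They became 7 and 7 with a common sum, where 14.5% and 14.9% of all genes were 2-fold or more lower. With scaling to the upper quartile they were 7 and 6 (13.4% and 13.4%). A 4-fold rule left 2 of 6 in WT and 2 of 6 under the label Zak-KO. The shares of all genes past 1.5-fold and 4-fold, or past 2-fold with the other pseudocounts, were not counted. Pathway genes called at 6 h numbered 31, but 20 without a filter, 18 at an adjusted p under 0.01, and 15 to 30 when 1 library was left out. Calls between the genotypes over the 3 times were 3 of all genes, 28 higher and 35 lower without the 48 h WT library, and 26 and 35 without the 48 h library labelled Zak-KO, and between 0 and 6 in other alternatives, with none of the 10 genes among them in any. Of all genes, 56.7% were called at 6 h, but 32.1% without the 0 h WT library and 33.6% without the 0 h library labelled Zak-KO.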
